A study of Mus musculus with 6 samples.

Results

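Small nuclear RNA (snRNA) and small nucleolar RNA (snoRNA) genes were read for Tex10 and for the promoter mark H3K4me3 in primordial germ cell-like cells (PGCLCs) of the mouse. The genes were all those of the types snRNA and snoRNA on chromosomes 1 to 19 in GENCODE M21 (GRCm38), 2734 of 51229 annotated genes, of which 1292 were snRNA and 1442 snoRNA. Each gene body was extended by 500 bp on both sides, and the gene was counted when this window shared at least 1 bp with an interval of the HA-Tex10 or the H3K4me3 list. The rule of choice used only the annotated type and chromosome, although earlier results of these data were known when it was set. Some genes stand in the annotation more than once, so that the 2734 records lie at 2711 loci and hold 2519 distinct sequences.

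The cells were untreated PGCLCs of strain 129Sv/J at day 2 of culture, and PGCLCs are cultured cells that resemble the founders of the germ line. Their Tex10 protein was fused at its C-terminal end to an HA tag, in all groups as far as the labels tell. The series has 2 samples precipitated with an antibody against the tag (Abcam ab9110), 2 with an antibody against H3K4me3 (Abcam ab8580) and 2 of input DNA. The deposited lists hold 1 set of intervals per antibody, with no score and no value of a single sample, so no value below has an error between replicates. The intervals given with shares are Wilson 95% intervals; they cover counting error only and treat genes as independent, which copies of a family are not. The HA-Tex10 list has 4331 intervals and the H3K4me3 list 29072, of which 4129 and 27954 lie on chromosomes 1 to 19, and sequencing depth is unknown. The H3K4me3 list held an interval at 6 of 8 germ cell and pluripotency genes (not at Nanos3 or Dppa3) and at 0 of 5 genes of other tissues.

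The U1, U2, U4, U5 and U6 RNAs are the core of the major spliceosome, and U11, U12, U4atac and U6atac serve the minor spliceosome, which removes a rare class of introns. U7 directs the trimming of histone messenger RNA ends. These RNAs come from genes with promoters of their own: RNA polymerase II reads U1, U2, U4, U5, U7, U11 and U12, while polymerase III reads U6 and U6atac. Most snoRNAs in mammals are instead cut out of introns of other genes, and guide the chemical modification of ribosomal RNA; C/D box snoRNAs guide methylation and H/ACA box snoRNAs guide pseudouridine formation. U3 is a C/D box RNA needed to cut the ribosomal RNA precursor. Tex10 belongs to a complex that acts in ribosome maturation and has also been studied as a chromatin factor in pluripotent cells. The mouse genome holds large numbers of degenerate copies of these short genes beside the active ones, and 1281 of the snRNA and 1281 of the snoRNA records have only a provisional Gm symbol.

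The first sequence is the body of a U1 gene, shown because U1 is the family with the most HA-Tex10 intervals and its copies are compared by identity to such named sequences. It is read 5′ to 3′ on the transcript strand at chr11:87422867-87423030 (GRCm38, plus strand).
Rnu1a1: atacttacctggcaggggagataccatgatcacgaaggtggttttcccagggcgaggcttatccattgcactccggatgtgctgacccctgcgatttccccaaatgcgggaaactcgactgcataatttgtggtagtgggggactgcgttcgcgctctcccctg

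The next set gives the 260 bases before the 5′ end of 4 genes with an HA-Tex10 interval and of 2 U6 genes without, again on GRCm38 and on the transcript strand, so that the last base adjoins the gene. They are shown for the known elements of snRNA promoters, which stand in capitals. These are the octamer ATTTGCAT (or its reverse complement ATGCAAAT), a core of the proximal element, ACCNNNNNT, and in the U6 genes TATANA. The positions are chr11:87426456-87426715, plus strand (Gm22068, a U1 gene); chr11:101657978-101658237, plus strand (Rnu2-10, a U2 gene); chr9:65201842-65202101, minus strand (Rnu5g, a U5 gene); chr8:31149968-31150227, minus strand (Snord13); chr10:79908935-79909194, plus strand (Gm24019, U6); and chr12:52603528-52603787, plus strand (Gm24859, U6).
Gm22068: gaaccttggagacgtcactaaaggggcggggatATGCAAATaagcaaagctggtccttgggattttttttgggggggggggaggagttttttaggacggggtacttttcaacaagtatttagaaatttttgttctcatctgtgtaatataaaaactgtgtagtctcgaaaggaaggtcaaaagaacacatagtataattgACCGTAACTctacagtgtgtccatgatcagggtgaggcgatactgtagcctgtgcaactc
Rnu2-10: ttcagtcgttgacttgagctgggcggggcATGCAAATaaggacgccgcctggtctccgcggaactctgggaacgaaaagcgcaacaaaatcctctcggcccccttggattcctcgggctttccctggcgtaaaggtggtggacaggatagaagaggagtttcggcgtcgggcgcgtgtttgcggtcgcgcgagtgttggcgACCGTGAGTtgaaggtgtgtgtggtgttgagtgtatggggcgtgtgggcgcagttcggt
Rnu5g: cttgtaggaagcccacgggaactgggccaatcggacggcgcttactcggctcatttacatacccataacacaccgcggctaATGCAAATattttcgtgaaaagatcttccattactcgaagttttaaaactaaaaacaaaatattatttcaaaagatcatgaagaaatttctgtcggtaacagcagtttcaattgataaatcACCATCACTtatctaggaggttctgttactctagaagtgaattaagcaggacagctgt
Snord13: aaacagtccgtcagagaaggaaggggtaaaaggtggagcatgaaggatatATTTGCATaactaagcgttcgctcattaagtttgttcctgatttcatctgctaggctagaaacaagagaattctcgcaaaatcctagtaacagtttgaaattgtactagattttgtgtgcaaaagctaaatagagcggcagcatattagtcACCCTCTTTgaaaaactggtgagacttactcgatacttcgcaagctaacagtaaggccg
Gm24019: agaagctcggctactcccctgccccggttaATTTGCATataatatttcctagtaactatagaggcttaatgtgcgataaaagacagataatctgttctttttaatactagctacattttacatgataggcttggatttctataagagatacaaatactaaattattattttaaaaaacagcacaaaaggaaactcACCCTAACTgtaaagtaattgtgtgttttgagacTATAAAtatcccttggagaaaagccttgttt
Gm24859: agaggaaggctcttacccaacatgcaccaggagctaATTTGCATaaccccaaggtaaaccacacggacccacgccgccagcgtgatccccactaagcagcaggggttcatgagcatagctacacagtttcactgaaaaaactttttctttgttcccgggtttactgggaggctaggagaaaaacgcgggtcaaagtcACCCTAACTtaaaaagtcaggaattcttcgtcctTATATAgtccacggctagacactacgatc

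Across all members, HA-Tex10 intervals were as rare as at other short RNA genes. They were found at 57 of 2734 records (2.08%, 1.61 to 2.69%), against 1.99% of 2970 other short RNA genes (miRNA, misc_RNA, rRNA and the like) and 4.12% of the 5′ ends of 48495 other annotated genes, read with windows of like size. A window of 1107 bp, the median length here, would meet an HA-Tex10 interval at 0.218% of all positions of these chromosomes. The 57 records lie at 52 loci and meet 51 distinct intervals, 1.24% of the list. Those intervals had a median width of 348 bp, against 232 bp for the whole list. H3K4me3 intervals were found at 195 records (7.13%, 6.23 to 8.16%), against 12.2% of the other short RNA genes, 31.6% of the other 5′ ends and 2.19% of positions. Members as a whole thus had H3K4me3 less often than both sets of genes and more often than positions at large, and HA-Tex10 at the level of other short RNA genes.

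Shares differed between hosted and free-standing genes for snoRNAs, and not detectably for snRNAs. A gene was called hosted when another gene on the same strand contains it, and free-standing when no gene on either strand does; the rest lie inside a gene of the opposite strand only. HA-Tex10 intervals were found at 20 of 716 free-standing snRNA genes (2.79%), 8 of 294 hosted (2.72%) and 4 of 282 on the opposite strand (1.42%). The hosted share minus the free-standing share was -0.0722 percentage points, with a 95% Newcombe interval from -2.07 to 2.66, so that a difference of a few points either way would not have been seen. H3K4me3 was found at 22, 13 and 11 of these genes, and its difference of 1.35 points also had an interval across 0 (-1.03 to 4.52). Among snoRNA genes, 21 of 649 hosted ones had HA-Tex10 (3.24%, 2.13 to 4.90%), against 3 of 584 free-standing (0.514%, 0.175 to 1.50%) and 1 of 209 on the opposite strand. The difference between hosted and free-standing was 2.72 points (1.24 to 4.42). Some of these records are the same gene or share an interval, as the 4 snoRNAs of Rpl13a do, and the Newcombe interval takes no account of that. With 1 record per locus the shares were 17 of 638 hosted (2.66%) and 2 of 575 free-standing (0.348%). The hosted count depended on the window: it was 11 (1.69%) with the gene body alone and 33 (5.08%) with 1000 bp on each side, against 3 and 4 of the free-standing genes. H3K4me3 was found at 138 hosted (21.3%), 10 free-standing (1.71%) and 1 opposite-strand snoRNA gene, a difference of 19.6 points (16.3 to 23.0) between the hosted and the free-standing.

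**Figure D1:**
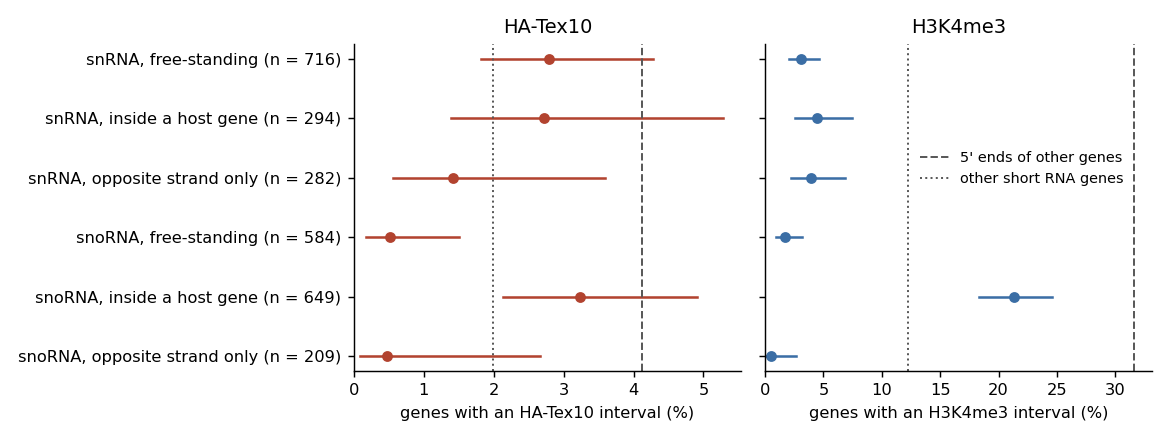
Share of snRNA and snoRNA genes with an HA-Tex10 interval (left, %) and an H3K4me3 interval (right, %), by type and place. Points are shares, bars Wilson 95% intervals, and vertical lines the shares of the 5′ ends of other genes (dashed) and of other short RNA genes (dotted); hosted snoRNA genes stand highest for H3K4me3, at 21.3%.

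Among snRNAs the intervals were gathered in a few families and, within them, mostly in copies of high identity to the named genes. Families came from symbols, RefSeq product names and alignment with blastn, and a copy was called near-identical when it matched a named sequence at 95% identity or more over at least 95% of its length. The named genes were aligned too and match themselves, so that they are near-identical by definition. Rnu7 and Rnu11, the only near-identical U7 and U11 genes, are such cases. Of the near-identical copies of U1, U2, U5, U7, U11 and U12, 27 of 44 had an HA-Tex10 interval (61.4%, 46.6 to 74.3%), against 2 of the 221 other copies of the same families (0.905%, 0.249 to 3.24%). Near-identical U6 copies had none among 184, which allows a share of up to 1.63%, and all 815 U6 copies together had none either, which allows up to 0.368%. The difference between those polymerase II families and U6, for near-identical copies, was 61.4 percentage points (46.5 to 74.3). The same contrast for H3K4me3 was smaller, at 13 of 44 (29.5%) against 7 of 184 (3.80%), a difference of 25.7 points (13.7 to 40.5). That contrast was drawn after the values had been seen, and 4 of the U6 copies hold both the octamer and TATANA, as the motif counts further on show. Leaving out genes whose window is mostly repeated sequence gave 16 of 30 (53.3%) against 0 of 114.

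**Figure D2:**
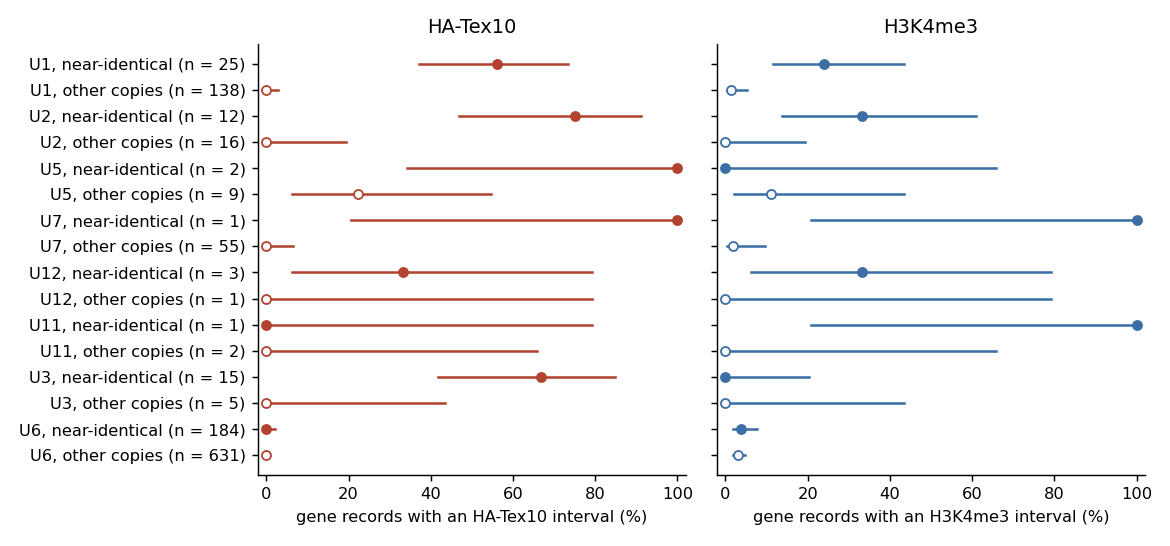
Share of gene records with an HA-Tex10 (left, %) and an H3K4me3 interval (right, %) in each family, for near-identical copies (filled) and other copies (open), with Wilson 95% intervals. The near-identical copies of U1, U2 and U3 have HA-Tex10 at 14 of 25, 9 of 12 and 10 of 15 records, and both U6 rows stand at 0.

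U1 base-pairs with the start of introns. HA-Tex10 intervals were found at 14 of its 25 near-identical copies (56.0%, 37.1 to 73.3%) and at 0 of 138 other copies. All 14 lie in 3 clusters. On chromosome 12 all 7 copies between positions 54696782 and 54738622 had an interval: Gm22513, Gm22634, Gm23804, Gm25679, Gm26444, Gm24305 and Gm22317. On chromosome 11 both copies between 87422867 and 87426879 had it, Rnu1a1 and Gm22068, which sit in introns of the germ cell gene Tex14. On chromosome 3, 5 of the 8 copies between 96328425 and 96488893 had it: Gm24830, Gm26232, Rnu1b6, Gm25890 and Gm22614. The other 3 of that cluster, Rnu1b1, Rnu1b2 and Gm24136, had none. Rnu1b1 and Rnu1b2 are themselves named U1 sequences, so that their match of 100% was fixed in advance. The 14 copies with an interval matched a named U1 at 99.4 to 100%, and the 11 without at 95.1 to 100% (median 97.6%). The 8 near-identical copies outside these clusters, none within 200 kb of another, had no interval.

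Placement within the U1 clusters is unsure. A stretch was called mostly repeated when over 50% of its 32-base words occur more than once in the genome, since short reads there can fit several places equally well. Of the 14 HA-Tex10 intervals at U1 copies, 11 were mostly repeated, with a median repeated share of 95.4%, and only 3 were not: those at Rnu1a1 and Gm22068 (36.2% repeated in each) and at Gm22513 (24.6%). Which of the other 11 copies the reads came from cannot be told apart from the lists. The windows of Rnu1b1 and Rnu1b2, which had no interval, were 95.8 and 95.9% repeated.

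U2 pairs with the branch site of introns and had intervals at 9 of 12 near-identical copies (Wilson interval 46.8 to 91.1%) and at 0 of 16 others. All 4 copies of the chromosome 1 cluster (72226240 to 72255198) had it, namely Gm25360, Gm23472, Gm24497 and Gm25939, the last 3 inside introns of the non-coding gene D230017M19Rik. On chromosome 11, 4 of the 5 copies between 101604850 and 101658428 had it: Gm26316, Gm23849, Gm24950 and Rnu2-10. The exception, Gm23971, matched the named U2 at 100%. Gm22973 on chromosome 12 stands alone and had an interval of 555 bp over the whole gene. Here 5 of the 9 intervals were not mostly repeated, among them those at Gm26316 (0% repeated) and Gm24497 (11.4%).

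**Figure D3:**
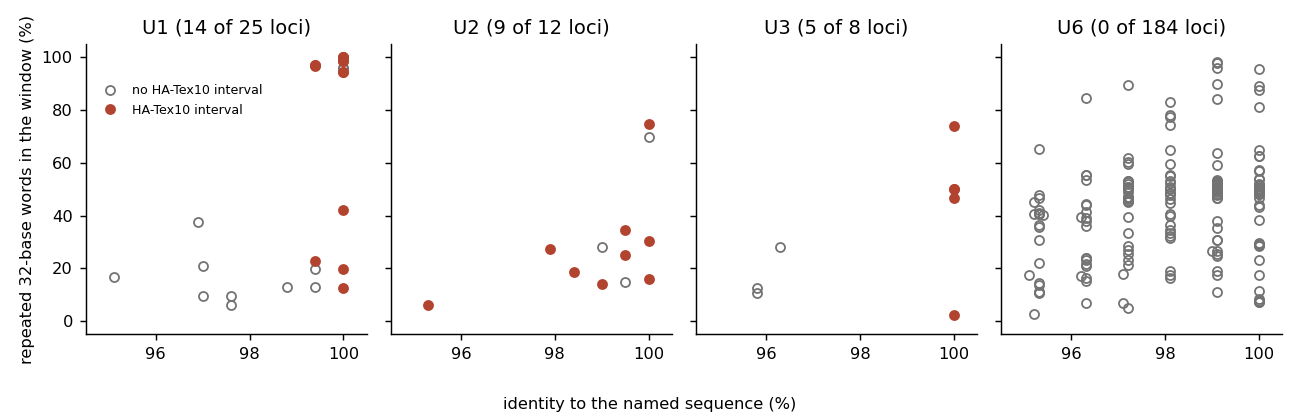
Each point is a locus of a near-identical copy of U1, U2, U3 or U6, placed by its identity to the named sequence (x axis, %) and by the share of 32-base words of its window that occur more than once in the genome (y axis, %). Loci with an HA-Tex10 interval (filled) number 14 of 25 for U1, 9 of 12 for U2, 5 of 8 for U3 and 0 of 184 for U6, where identities of 100% and repeated shares below 10% also occur.

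The remaining spliceosomal families have few genes. U5, which holds the exons together during splicing, had HA-Tex10 at both near-identical copies, Gm25313 and Rnu5g, 2 neighbours on chromosome 9 inside an intron of Parp16 on the opposite strand. It was also present at 2 of the 9 copies not counted as near-identical, Gm25099 and Gm23143, neighbours on chromosome 4 that are named because they were the only ones. Their alignments, of 98.0 and 95.3% identity, pass the bound on identity and miss that on length. The intervals of these 4 U5 genes were 0 to 36.5% repeated and none had H3K4me3. U4, the partner that keeps U6 inactive until splicing starts, has no named sequence here, so its 11 copies were not divided by identity. The 2 with HA-Tex10, Gm24265 and Gm24407, are neighbours on chromosome 5 whose windows share an interval of 284 bp; Gm24407 had another, of 219 bp, over its whole body. Rnu12, the U12 gene on chromosome 15, had an interval of 454 bp across its whole body, and 2 other near-identical copies, Gm25703 and Gm24525, had none. Rnu11, the U11 gene on chromosome 4, had no HA-Tex10 interval and a narrow H3K4me3 interval in its window. U6atac had 0 of 14 with HA-Tex10, which allows a share of up to 21.4%.

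Rnu7, the U7 gene at chr6:124741225-124741286 on the minus strand, overlaps an exon of Grcc10, so its interval of 214 bp cannot be assigned to either gene: it covered 39 bp of Rnu7 and lay over a transcription start site (TSS) of the host. The other 55 U7 copies had no HA-Tex10 interval. Outside the named families, 1 of 187 snRNA genes had an interval: Gm22710 on chromosome 1, named as the single case, inside an exon of the non-coding gene 2900060B14Rik and 83 bp from a TSS of it. That interval did not reach the body of Gm22710. The octamer starts at -227 and the proximal core at -48 from its annotated 5′ end.

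The intervals lay over the short genes themselves. At all 27 near-identical U1, U2, U5, U7 and U12 genes with HA-Tex10 the interval overlapped the gene body. Interval centres had a median of 2.5 bp from the 5′ end (positive values are downstream) and ranged from -168 to 360 bp, and widths ran from 157 to 683 bp, with a median of 426 bp. Of the 27 intervals, 20 were farther than 1 kb from any TSS of a host or of a protein-coding gene. The 5 within 1 kb of a protein-coding TSS were those at Rnu7, Gm22068 (480 bp from Tex14), Gm23849 (515 bp from Rdm1), Gm22513 (597 bp from Eapp) and Rnu12 (36 bp from Poldip3), and those at Gm23472 and Gm24497 lay near a TSS of their non-coding host. With no flank at all, the count remained at 27 of 44. The H3K4me3 intervals stood differently. Of the 12 genes of this set with both marks, H3K4me3 overlapped the gene body at 2, Gm24830 and Gm23472, and overlapped the HA-Tex10 interval at 8. Elsewhere H3K4me3 lay beside the gene, as at Gm22513 and Rnu12, where it ended before the HA-Tex10 interval began.

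**Figure D4:**
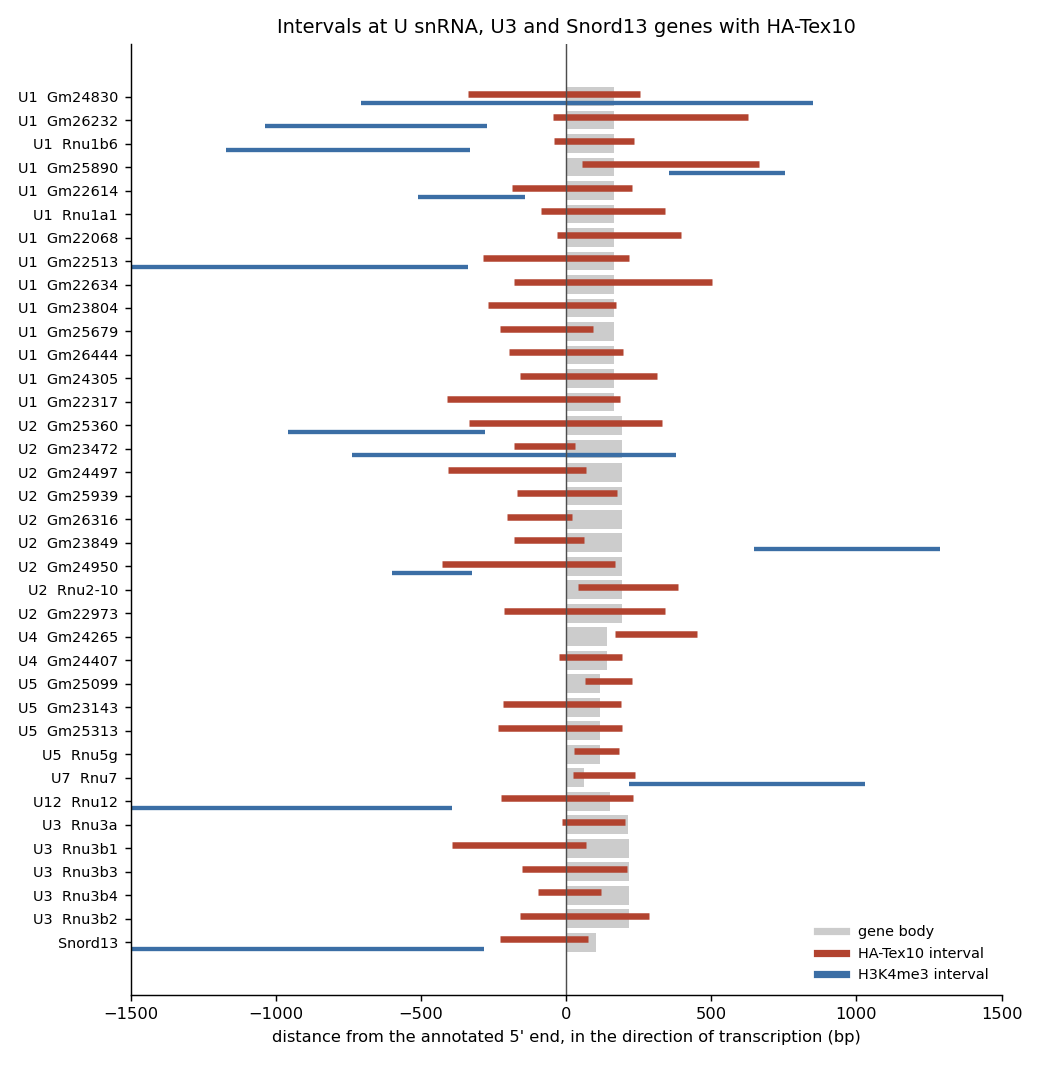
HA-Tex10 (red) and H3K4me3 (blue) intervals at U snRNA genes, U3 genes and Snord13 with HA-Tex10, by distance from the annotated 5′ end in bp, with the gene body in grey; for each gene and antibody the interval with most overlap of the body is drawn, cut at 1500 bp. Red bars overlap the grey body in every row except Gm24265, and blue bars overlap it at Gm24830 and Gm23472.

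H3K4me3 was less regular at members with HA-Tex10 than at other genes with it. Of the 57 members with HA-Tex10, 25 also had H3K4me3 (43.9%, 31.8 to 56.7%), while 96.6% of the 1999 other 5′ ends with HA-Tex10 had it. With the gene body alone, with no flank, the share of members was 4 of 44 (9.09%). The other 5′ ends were not read with so narrow a window, so 9.09% has no like value beside it. By type, with the flanks kept, H3K4me3 was at 13 of 32 snRNA (40.6%, 25.5 to 57.7%) and 12 of 25 snoRNA records (48.0%, 30.0 to 66.5%). In the other direction, 13 of 46 snRNA genes with H3K4me3 had HA-Tex10 (28.3%, 17.3 to 42.5%), against 12 of 149 snoRNA genes (8.05%, 4.67 to 13.5%) and 12.6% of the 15327 other 5′ ends with H3K4me3. Mostly repeated intervals made up 26 of the 57, 15 of 32 in snRNA and 11 of 25 in snoRNA records. Without the members whose window is mostly repeated, 19 of 38 members with HA-Tex10 had H3K4me3. All 5 chromosome 3 U1 genes with HA-Tex10 had H3K4me3, against 1 of 7 on chromosome 12 (Gm22513) and 0 of 2 on chromosome 11.

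Promoter elements were searched in the reference sequence by their letters. The octamer ATTTGCAT was sought on both strands within 300 bases before the 5′ end, the core ACCNNNNNT on the transcript strand starting 80 to 40 bases before it, and TATANA on the transcript strand starting 40 to 15 bases before it. Among the 32 snRNA genes with HA-Tex10 the octamer was found at 16, the core at 24 and TATANA at 1. Among the 1260 without, the shares were 3.49, 14.4 and 7.14%, and among the 5′ ends of other genes 2.26, 11.8 and 3.34%. Families differed in which element they had. All 14 near-identical U1 copies with HA-Tex10 held the core and 1 the octamer, while 3 of the 11 without HA-Tex10 held the core. Many of these U1 copies share their upstream sequence and are not separate observations. The 300 bases before the 5′ end were 100% repeated at Gm26232 and Gm23804, for example, and 0% at Rnu1a1, Gm22068 and Gm22513. They were also 100% repeated at Rnu1b1 and Rnu1b2, which hold the core without HA-Tex10. All 9 near-identical U2 copies with HA-Tex10 held the octamer and 3 the core, against 2 and 1 of the 3 without. The printed sequences before Gm22068, Rnu2-10 and Rnu5g hold both elements. Gm22068 is the 1 U1 copy of the 14 with the octamer, and Rnu2-10 is among the 3 U2 copies of the 9 with the core. These printed examples are therefore not typical of the U1 and U2 copies.

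Of the 184 near-identical U6 copies, 9 held the octamer, 26 the proximal core and 17 TATANA. The octamer and TATANA were found together at 4: Gm24019, Gm24859, Gm23296 and Gm25064, each identical to the named U6 over its whole length. All 4 had an H3K4me3 interval, against 3 of the other 180, and none of the 4 had HA-Tex10. The pair of elements was chosen after these values were seen, and with 4 genes a count of 0 leaves a Wilson interval of 0 to 49.0%. Gm24859 and Gm23296 are neighbours on chromosome 12, on opposite strands, and an H3K4me3 interval of 672 bp reaches into both, 87774 bp from the nearest protein-coding TSS. At Gm24019 the H3K4me3 interval lies over a TSS of Med16, and at Gm25064 13987 bp from one of Skor1. The windows of these 4 genes were 7.4 to 8.6% repeated. Rnu6 itself, on chromosome 17, had neither interval, and its window was 89.0% repeated.

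Among snoRNAs, U3 accounted for 10 of the 14 records with HA-Tex10 over the gene body; the others were Snord13, Snord33, Snora78 and Gm22128. The annotation lists U3 genes in duplicate, so 10 of 20 U3 records with HA-Tex10 were 5 genes: Rnu3a on chromosome 10 and Rnu3b1, Rnu3b3, Rnu3b4 and Rnu3b2 on chromosome 11. These are all the near-identical loci that match a named U3 at 100%, and the other 3 loci of 8, at 95.8 to 96.3%, had none. Rnu3a and Rnu3b1 are the named U3 sequences themselves, so that their own match was fixed in advance. Rnu3a is free-standing at chr10:40258467-40258679, plus strand, with an interval of 219 bp over the gene that lies 344 bp from a TSS of Gtf3c6. The 4 Rnu3b genes lie in introns of Tex14 between 87443237 and 87471583, downstream of Rnu1a1 and Gm22068 in the same gene. Their intervals were 219 to 462 bp wide and 15252 to 43617 bp from a TSS of Tex14. No U3 record had H3K4me3. The interval at Rnu3a was 13.8% repeated, and those at the Rnu3b genes 88.5 to 100%, so that placement of reads among the 4 is unsure.

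Snord13 and Snord118, which encodes U8, are 2 further C/D box genes that stand outside other genes. Snord13, at chr8:31149864-31149967 on the minus strand, had an HA-Tex10 interval of 306 bp over 77 bp of the gene, 0% repeated, with an H3K4me3 interval before it. The interval lies 119 bp from a TSS of Tti2, and the printed upstream sequence of Snord13 holds the octamer and the proximal core. Snord118 holds the octamer and the core too and had neither interval.

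Hosted snoRNA genes other than U3 showed another arrangement, described after the sequence of Snord33. Snord33 is among the 3 of these genes with an HA-Tex10 interval over the gene body, so it is not typical of them. It lies in Rpl13a at chr7:45126864-45126947 on the minus strand (GRCm38, transcript strand, C box and D box of the letters NTGATGA and CTGA in capitals).
Snord33: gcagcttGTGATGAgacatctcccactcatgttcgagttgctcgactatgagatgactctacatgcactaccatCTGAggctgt

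Of the 13 hosted snoRNA genes other than U3 with HA-Tex10, 11 had their interval within 1 kb of a TSS of the host, 3 had it over the gene body, and 11 had H3K4me3. Their interval centres ran from -550.5 to 616 bp from the 5′ end of the snoRNA, with a median of -313.5 bp. In Rpl13a, a ribosomal protein gene, a single interval of 263 bp over a TSS reached the windows of 4 snoRNAs, Snord35a, Snord34, Snord33 and Snord32a, and covered the body of Snord33 only. The others with an Snord or Snora symbol were Snord68 in Rpl13, Snora21 in Rpl23, Snora64 in Rps2, Snora78 in the non-coding gene Snhg9 beside Rps2, and Snora73a in Rcc1, the exchange factor of the nuclear transport GTPase Ran. The intervals were 521 bp wide at Snord68, 472 bp at Snora73a, 299 bp at Snora21, 264 bp at Snora64 and 116 bp at Snora78. H3K4me3 was present at each of them, in intervals of 1984 to 4478 bp. In all, 6 of 97 records with an Snord symbol and 4 of 39 with an Snora symbol had HA-Tex10, and 48 and 26 had H3K4me3. Of the provisional symbols, Gm23639 in Epb41l4aos, Gm22039 inside Prdm2 on the opposite strand and Gm23969 in Rpl7a had the widest intervals, at 419, 287 and 284 bp.

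Of the families with most copies, SNORA17 had HA-Tex10 less often than the 1.73% over all snoRNA records. SNORD115 and SNORD116 could not be told apart from that share. SNORA17, the largest, had HA-Tex10 at 1 of 426 (0.235%, 0.0414 to 1.32%, Gm22039). Its interval includes the 0.514% of free-standing snoRNA genes, and the families were not divided by place. The 1.73% also includes SNORA17 itself and the U3 genes listed in duplicate, so the lower share cannot be assigned to the family. SNORD115, imprinted and brain-expressed, had 0 of 131, which allows up to 2.29%. SNORD116, its neighbour in the host Snhg14, had 2 of 69 (2.90%, 0.799 to 9.97%; Gm22128 and Gm26246), both intervals 100% repeated. None of the SNORD115 and SNORD116 records had H3K4me3.

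Distance to the host promoter went with H3K4me3 at hosted snoRNA genes. Within 1 kb of a host TSS, 104 of 191 had H3K4me3 (54.5%) and 11 had HA-Tex10 (5.76%). From 1 to 3 kb these were 32 of 94 (34.0%) and 0 of 94, and beyond 3 kb 2 of 364 (0.549%) and 10 of 364 (2.75%), the last being the 8 Rnu3b records and the 2 SNORD116 copies. Hosted snoRNA genes with H3K4me3 lay a median of 345 bp from a host TSS, and those without 12298 bp.

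The hosts of all snoRNA members numbered 293, and 55 of them had HA-Tex10 at most 1 kb from a TSS (18.8%, 14.7 to 23.6%), while 231 had H3K4me3 there. Of the 79 that host genes with an Snord or Snora symbol, 30 had HA-Tex10 there (38.0%, 28.1 to 49.0%) and 76 had H3K4me3. Among all 20807 protein-coding genes of these chromosomes HA-Tex10 was found at 9.09% and H3K4me3 at 62.3%, and HA-Tex10 at 14.3% of those with H3K4me3. By class over all 293 hosts, 16 of 29 ribosomal protein hosts had it (55.2%, 37.5 to 71.6%), 4 of 12 Snhg or Gas5 hosts, 3 of 9 translation factor hosts, 2 of 3 nucleolar protein hosts (Ncl and Nop56), 28 of 188 other coding hosts (14.9%, 10.5 to 20.7%) and 2 of 52 other non-coding hosts. Ribosomal protein genes that host no snoRNA had it at 15 of 45 (33.3%, 21.4 to 47.9%); the hosting share was 21.8 points higher, with an interval from -1.04 to 42.2 that includes 0. All 29 hosting and all 45 other ribosomal protein genes had H3K4me3 at a TSS.

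**Figure D5:**
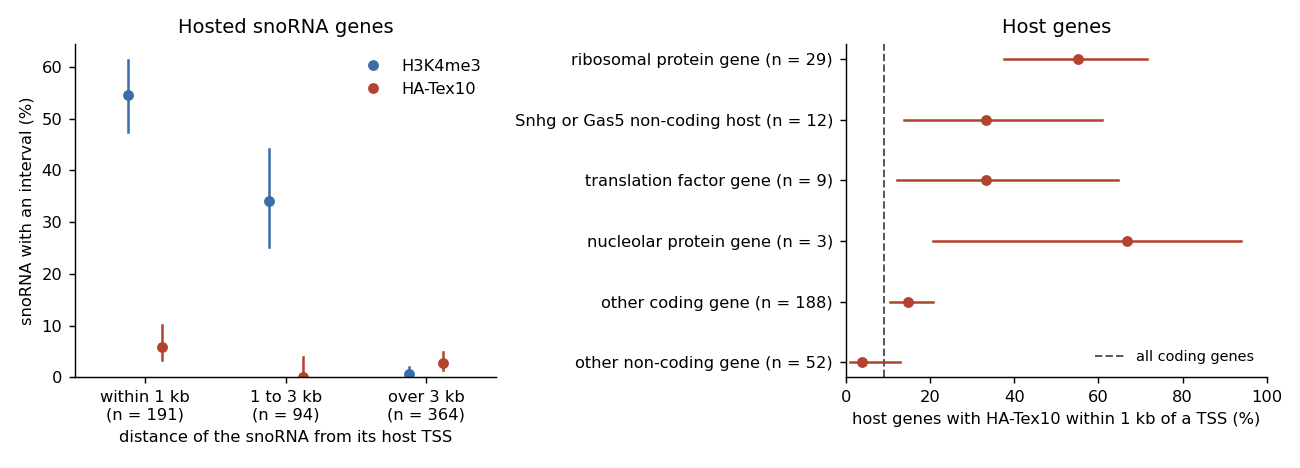
Left, share of hosted snoRNA genes with an H3K4me3 (blue) or HA-Tex10 (red) interval, in %, by distance from a host TSS; right, share of host genes with HA-Tex10 within 1 kb of a TSS, in %, by class of host, beside the 9.09% of all protein-coding genes (dashed). Bars are Wilson 95% intervals; H3K4me3 stands at 54.5, 34.0 and 0.549% from near to far, and ribosomal protein hosts have HA-Tex10 at 55.2%.

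Of 35 hosts with 3 or more snoRNA members, which hold 353 of the members, 33 had H3K4me3 at a TSS and 11 had HA-Tex10. The 11 were Snhg1, Tex14 (where the interval at Gm22068 lies 480 bp from a TSS), Nop56, Rpl13a, 1810032O08Rik, Cnot1, Eif4a1, Ncl, Rpl23a, Rpl5 and Rpl7a. Snhg1 shows how host and snoRNA readings differ: its 8 snoRNAs all had H3K4me3 in their windows and none had HA-Tex10, while its TSS had both. The snoRNA hosts Gas5, Taf1d, Eif4a2 and Snhg12 had H3K4me3 without HA-Tex10 at a TSS. Snhg14, with 208 members, and Rian, with 12, are imprinted hosts and had neither at a TSS.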

How the data were processed

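The authors deposited interval positions for HA-Tex10 and for H3K4me3, without score, signal or p-value; a further HA-Tex10 list holds those of its intervals that meet H3K4me3 and was not used. The submitters' processing notes name Bowtie2 2.3.4.3, SAMtools 1.9, MACS2 2.1.2, HOMER and the build mm10, without role or order. The threshold, the use of the input samples, the treatment of replicates and of reads that fit several places, and the depth are not given in the sources used here. All intervals fit GRCm38 chromosome lengths (0 past an end).

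Genes came from GENCODE M21, and names and sequences from RefSeq GRCm38.p6. Copies were aligned with blastn 2.17.0, and a family needed an alignment over 80% of the shorter sequence. Shares have Wilson and differences Newcombe 95% intervals; the limit of a count of 0 is 3 counts of the total. No test was run, since there is 1 list per antibody. Repeats were counted as 32-base words that recur in the genome, on either strand, with a bound of 50% for mostly repeated. The functions were tested on simulated data. Python 3.11.15 with pandas 2.3.3 was used.

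Members, families, motifs and host classes were chosen with earlier results of these data known. Named were snRNA genes with an Rnu symbol or near-identical copies with HA-Tex10, up to 5 without, snoRNA genes with an Snord, Snora or Rnu3 symbol and HA-Tex10, hosts of 3 or more snoRNA genes, and the 3 provisional symbols with the widest interval per type; other named genes were chosen after their values were seen. Alternatives changed the window, the overlap, the interval width, the chromosomes, the repeats, the copies and the definition of a host. Some sequences and 1 host gene are not reported here.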

Additional observations from a re-analysis of the deposited data

How the results depend on the processing

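Of 127 recomputed values, 110 moved by less than the counting error of the reported share and 17 by more. With the gene body alone, HA-Tex10 shares were 1.69% for hosted snoRNA genes, and H3K4me3 shares 0.559% for free-standing snRNA, 2.04% for hosted snRNA, 17.3% for hosted snoRNA and 1.63% for near-identical U6 genes; 44 members had HA-Tex10, 9.09% of them with H3K4me3. With 1000 bp on each side, 72 members had HA-Tex10, 56.9% of them with H3K4me3, and the hosted snoRNA share was 5.08%. With intervals wider than the median, HA-Tex10 was at 0.171% of free-standing snoRNA, and H3K4me3 at 1.26% of free-standing snRNA and 1.63% of near-identical U6 genes. Without mostly repeated members, HA-Tex10 was at 1.75% of free-standing snRNA and H3K4me3 at 31.4% of hosted snoRNA genes. For hosted snoRNA genes, H3K4me3 was at 26.9% with 1 member per sequence, 16.2% with hosts on either strand and 27.8% with protein-coding hosts only, where HA-Tex10 was at 5.07%. The cause was not tested. The near-identical share of 61.4% ranged from 46.7% (copies of 90% identity) to 62.8% (without chromosome 8); every alternative for the near-identical shares was chosen after seeing the data. The near-identical U6 share left 0 with 1000 bp on each side only, at 1 of 184. Counting 1 record per locus and intervals of 50 bp or more were added after seeing the data for the other shares too.

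No paired analysis was possible because no interval list gives values of its replicates, which also prevents leaving out a replicate. With unknown depth and threshold, a gene without an interval is 1 without a called interval, and its signal is not known.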

Other observations

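Related short RNA genes outside the types snRNA and snoRNA were read in the same way. Rn7sk, the RNA that holds the elongation factor P-TEFb inactive, had an HA-Tex10 and an H3K4me3 interval in its window, as had Rn7s1, a gene of the signal recognition particle RNA, and Rpph1, the RNA of ribonuclease P. Rmrp, Rny1, Rny3 and Rn7s2 had H3K4me3 and no HA-Tex10 interval. These genes are read by RNA polymerase III, as U6 is, and an absence of HA-Tex10 from the window was not shared by all of them. For these genes the overlap with the gene body, the distance to a protein-coding TSS and the repeated share of the interval were not read. An interval in the window can therefore not be assigned to the short gene rather than to a neighbouring promoter. Among the RNAs that guide modification in Cajal bodies (scaRNA), 1 of 46 genes had HA-Tex10 (Scarna2) and 5 had H3K4me3.

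On the X and Y chromosomes 0 of 91 snRNA genes had either interval, which allows a share of up to 3.30%, and 0 of 65 snoRNA genes had HA-Tex10, which allows up to 4.62%. The snoRNA genes Snora69, Snord61 and Snora70 there had H3K4me3.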
